A study of Rattus norvegicus with 12 samples.

Results

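The genes described here are 10 parts of the machinery with which cells feel mechanical load: the stretch-gated channels Piezo1 and Piezo2, the focal adhesion proteins Vcl, Tln1, Tln2, Ptk2, Pxn, Zyx and Ilk, and the kinase Rock2. They were chosen by name, and all 10 were found among the 30562 genes of the deposited table and passed the filter on low counts that left 15712 genes to test. Poly(A) RNA was counted in 12 samples of rat sciatic nerve stumps, 3 in each of 4 groups. In VP4:2 the stump was placed in a truncated-cone conduit of the 4:2 gradient loaded with verteporfin, a compound known to disrupt the binding of YAP to TEAD factors and added, per the series' design text, to examine the effect of YAP. In CC4:2 the conduit was of the same gradient and carried no drug by its label. In CC4:4 the conduit was of the 4:4 gradient. The Control stumps are labelled only as control, and the study's stated interest was pain relief by the conduits. The labels give no strain, age or sex of the rats, no time after surgery, no separate animals and no dose, and do not say what the ratio measures, what the Control stumps received or whether a conduit without drug carried a vehicle. A p-value here speaks only of the spread between samples, part of which may be technical.

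Cells grip the matrix at focal adhesions. Integrins bind the matrix outside, talin joins them to actin inside, vinculin reinforces that link as talin is stretched, and adaptors and kinases such as paxillin, focal adhesion kinase and integrin-linked kinase gather on the site. ROCK kinases raise myosin tension on the same actin, and PIEZO channels pass cations when the membrane is stretched. In nerve, PIEZO2 is best known from sensory neurons that serve touch and body position, and tension of this kind is one input to YAP.

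Totals were 13763093 to 18632300 counts per sample, and the 10 genes had between 183 and 13633 counts in a sample. Levels are CPM, counts relative to the library total after TMM scaling. They are compared between samples, not between genes, because transcript lengths were not used. Each group had 2 samples sequenced on the NovaSeq X Plus platform and its replicate 3 on DNBSEQ-T7, 8 and 4 samples in all. The NovaSeq samples alone, 2 per group, give a within-platform value, and the DNBSEQ-T7 samples, 1 per group, allow no test of their own. Of the 12 Schwann cell markers checked, all were detected in every group. Control replicate 1 stood apart from the other controls, with a summed Schwann cell marker level of 488 CPM beside 2730 and 4720 CPM, and a summed fibroblast marker level of 56800 CPM beside 14200 and 15900 CPM. CC4:2 replicate 2 had the highest value of its group for 8 of the 10 genes. Values without each of these libraries are given where they change a call. In bulk tissue, fewer cells of a type and less RNA per cell cannot be told apart.

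In the CC4:2 stumps the transcripts of Piezo2, vinculin (Vcl), talin 2 (Tln2) and paxillin (Pxn) were higher than in both Control and CC4:4, and those of Rock2 and focal adhesion kinase (Ptk2) higher than in Control. In CC4:4 none of the 10 passed the test against Control. In VP4:2 Piezo2 was lower than in CC4:2, and Vcl, Tln2 and Rock2 were higher than in Control. Piezo1, Tln1, Zyx and Ilk passed in no comparison with all samples. Over the 4 groups, 5 of the 10 genes differed (Piezo2, Vcl, Tln2, Pxn and Rock2) in edgeR's quasi-likelihood test at an adjusted p under 0.05, beside 37.4% of all genes tested. In CC4:2 against Control, 6 of 10 were called, all higher (Piezo2, Vcl, Tln2, Ptk2, Pxn and Rock2), and the share of all genes called was 43.5%, with 20.3% called higher. The median log2 fold change was 0.60 over the 10 genes and -0.04 over all genes. In CC4:4 against Control, 0 of 10 and 0% of all genes were called. At an unadjusted p under 0.05 that comparison held 831 genes, among them 1 of the 10, Vcl, while DESeq2 called 11 genes and limma-voom 0. In CC4:2 against CC4:4, 4 of 10 were called, all higher (Piezo2, Vcl, Tln2 and Pxn), beside 39.2% of all genes, 18.5% called higher. With the drug, in VP4:2 against CC4:2, 1 of 10 was called, Piezo2, which was lower, beside 6.23% of all genes and 0.999% called lower. Against Control, VP4:2 had 3 of 10 called, all higher (Vcl, Tln2 and Rock2), beside 18.9% of all genes, 9.3% called higher. Finally in VP4:2 against CC4:4, where gradient and drug both differ, 2 of 10 were called, both higher (Tln2 and Rock2), beside 11.2%, 5.7% called higher. Comparisons that use the same Control, CC4:2 or VP4:2 samples are not independent of each other. Since a large share of all genes was called in CC4:2 against Control and against CC4:4, the counts there are not particular to these 10 genes.

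**Figure D1:**
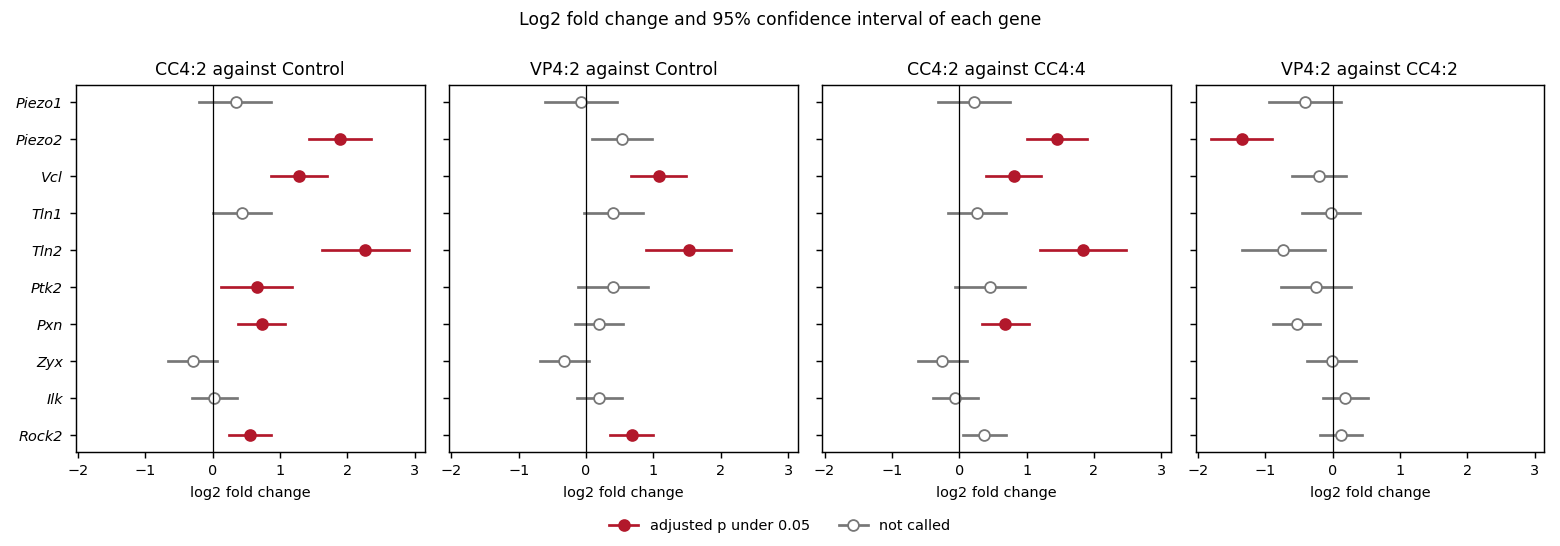
Log2 fold change (x axis) of each of the 10 genes with its 95% confidence interval in 4 comparisons, 3 samples per group. Filled points passed an adjusted p of 0.05 in edgeR's quasi-likelihood test; in VP4:2 against CC4:2 the only filled point is Piezo2 at -1.35.

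Piezo2 was the gene of the set whose level differed between the loaded and the unloaded 4:2 conduit. It stood at 29.2, 32.8 and 30.8 CPM in VP4:2, 73.3, 76.6 and 86.7 CPM in CC4:2, 30.3, 23.5 and 33.0 CPM in CC4:4, and 21.9, 27.2 and 14.8 CPM in Control. The 3 CC4:2 samples were above all 9 others, and the VP4:2 and CC4:4 samples overlapped. It fell in VP4:2 against CC4:2 by 1.35 ± 0.20 on the log2 scale (SE, n = 3 each; 95% confidence interval -1.80 to -0.90; adjusted p = 0.0028, edgeR). The call held in all 6 fits that left out a sample of either group, at -1.40 to -1.28, and in the NovaSeq samples alone, at -1.27 (edgeR adjusted p = 0.044). In CC4:2 it was higher than in Control by 1.89 ± 0.21 (adjusted p = 0.00012, edgeR) and higher than in CC4:4 by 1.45 ± 0.20 (adjusted p = 0.00055, edgeR). Both calls held in all 15 other settings tried, at 1.63 and 1.46 in the NovaSeq samples alone.

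Between the lower 3 groups the differences of Piezo2 were small and not called. VP4:2 less Control was 0.54 ± 0.20 log2 (interval 0.09 to 0.98; edgeR adjusted p = 0.087), with every VP4:2 sample above every Control sample. Without Control replicate 2 that difference was 0.78 and passed (edgeR adjusted p = 0.027). VP4:2 less CC4:4 was 0.09 ± 0.20 (interval -0.35 to 0.54), which leaves room for a difference in either direction.

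Piezo1, the broadly expressed channel of the pair, was called in none of the 6 comparisons. It stood at 104, 137 and 103 CPM in VP4:2, 103, 214 and 139 CPM in CC4:2, 158, 115 and 119 CPM in CC4:4, and 122, 122 and 118 CPM in Control. The groups overlapped, and CC4:2 replicate 2 was the highest of the 12 samples. CC4:2 less Control was 0.34 ± 0.24 log2 (interval -0.20 to 0.87), and without CC4:2 replicate 2 it was 0.01. VP4:2 less CC4:2 was -0.41 ± 0.24 (interval -0.94 to 0.13), and -0.08 without that sample.

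**Figure D2:**
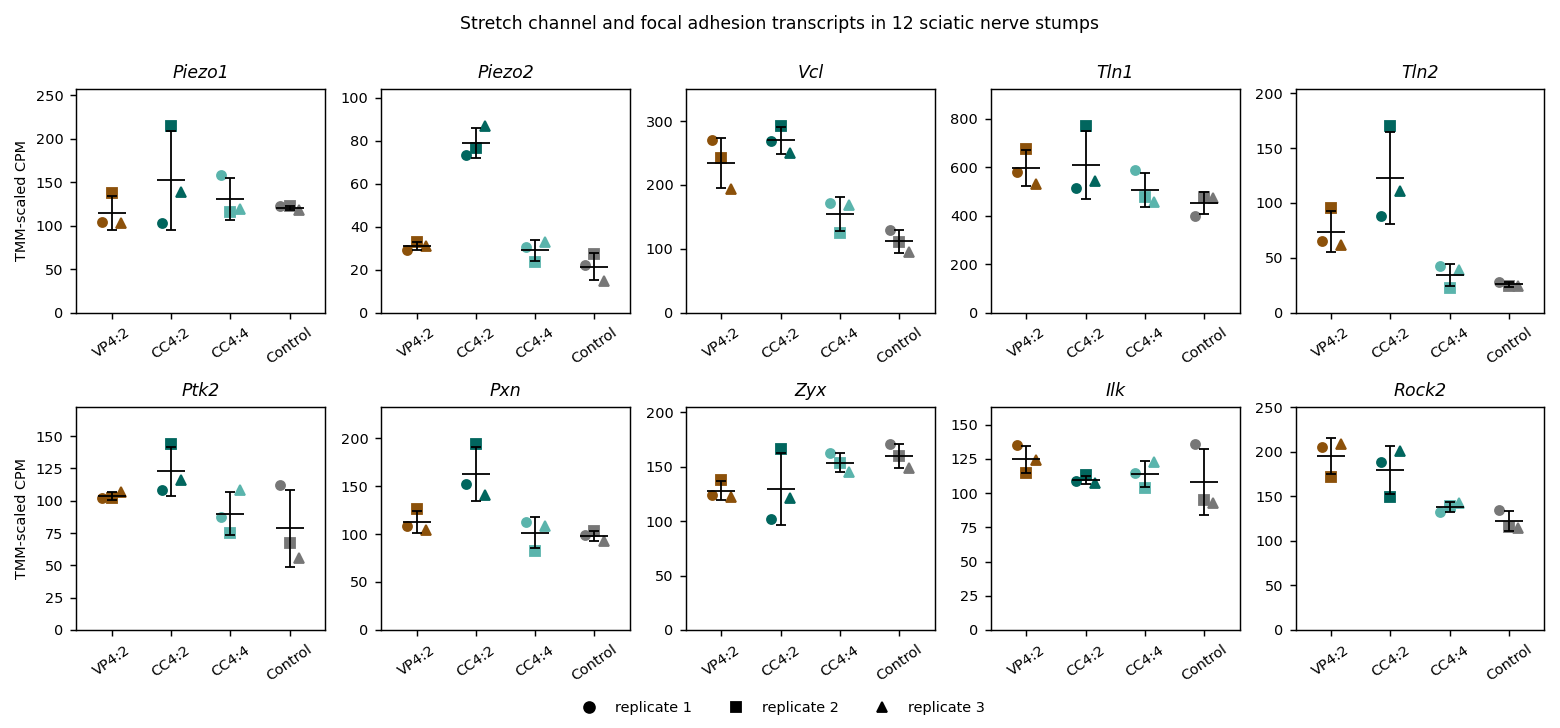
TMM-scaled CPM (y axis, from 0) of each gene in the 12 stumps, by group (x axis); markers show the replicate, and the bar and whiskers the mean and SD of 3 samples. For Piezo2 the CC4:2 samples (73.3 to 86.7 CPM) lie above all others, for Vcl the VP4:2 (193 to 270 CPM) and CC4:2 samples (250 to 292 CPM) lie above CC4:4 and Control, and for Piezo1 the groups overlap.

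Vcl encodes vinculin, which binds stretched talin and actin and strengthens adhesions under load. It stood at 270, 242 and 193 CPM in VP4:2, 269, 292 and 250 CPM in CC4:2, 171, 124 and 169 CPM in CC4:4, and 130, 110 and 94.4 CPM in Control. The VP4:2 and CC4:2 samples overlapped, and all 6 were above all CC4:4 and Control samples. It rose in VP4:2 against Control by 1.08 ± 0.18 log2 (adjusted p = 0.006, edgeR), and in CC4:2 against Control by 1.28 ± 0.19 (adjusted p = 0.00047, edgeR). Its rise in CC4:2 against CC4:4 was 0.81 ± 0.18 (adjusted p = 0.0063, edgeR). In the NovaSeq samples alone the rises were 1.12, which did not pass (edgeR adjusted p = 0.099), 1.24 and 0.91, which did. VP4:2 less CC4:2 was -0.20 ± 0.18 (interval -0.60 to 0.20) and was not called. VP4:2 less CC4:4 was 0.61 ± 0.18 with no overlap of the groups and missed the threshold (edgeR adjusted p = 0.057; 0.012 with DESeq2).

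The promoter windows of Piezo2, Vcl and Zyx are shown because verteporfin acts on YAP and TEAD. Piezo2 is the gene that was lower in the loaded conduit. Among the 8 genes with a window, Vcl and Zyx are the only ones with a TEAD letter motif in it. Each window runs from 250 bases before to 50 bases after a RefSeq transcript start (GRCr8). Windows were matched for 8 of the 10 genes, and Piezo1 and Ptk2 had none. The motif searched was GGAATG on both strands, in capitals below. It occurred in 14.2% of the 33469 windows of the table, in the Vcl window on the gene's strand at 167 bases before the start, and in the first of the windows of Zyx on the opposite strand, as CATTCC, at 205 bases before it. The Piezo2 window, on the minus strand at chr18:59115166-59115465, holds no match. The Vcl window lies on the minus strand at chr15:3404751-3405050 and that of Zyx on the plus strand at chr4:72203750-72204049. The CArG box bound by SRF, present in 1.64% of windows, was found in none of the 8 genes. A match is a description of letters, and its absence says only that these letters are not in this window.
Piezo2: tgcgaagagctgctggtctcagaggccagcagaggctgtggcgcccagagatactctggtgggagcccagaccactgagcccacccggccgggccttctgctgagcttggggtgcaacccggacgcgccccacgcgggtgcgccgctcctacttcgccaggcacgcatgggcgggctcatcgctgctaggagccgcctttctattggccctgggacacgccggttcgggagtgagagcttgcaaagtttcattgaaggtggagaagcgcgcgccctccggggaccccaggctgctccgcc
Vcl: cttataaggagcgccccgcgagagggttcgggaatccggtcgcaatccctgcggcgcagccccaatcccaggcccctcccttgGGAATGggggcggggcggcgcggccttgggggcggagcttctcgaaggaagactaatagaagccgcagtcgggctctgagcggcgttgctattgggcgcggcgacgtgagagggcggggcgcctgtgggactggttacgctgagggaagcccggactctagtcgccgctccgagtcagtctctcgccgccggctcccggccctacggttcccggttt
Zyx: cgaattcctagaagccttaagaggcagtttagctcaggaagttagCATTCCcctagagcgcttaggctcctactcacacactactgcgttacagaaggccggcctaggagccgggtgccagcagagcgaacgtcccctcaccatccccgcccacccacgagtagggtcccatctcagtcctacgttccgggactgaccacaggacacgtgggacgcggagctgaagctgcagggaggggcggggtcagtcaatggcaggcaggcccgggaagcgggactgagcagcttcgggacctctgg

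The talins link integrins to actin. Tln2, the talin that vertebrates carry beside the widely expressed Tln1, stood at 64.9, 95.7 and 61.3 CPM in VP4:2, 88.3, 170 and 111 CPM in CC4:2, 42.1, 22.8 and 38.4 CPM in CC4:4, and 28.3, 24.6 and 24 CPM in Control. VP4:2 and CC4:2 overlapped and both lay above CC4:4 and Control. It rose in VP4:2 against Control by 1.53 ± 0.29 log2 (adjusted p = 0.0077, edgeR), in CC4:2 against Control by 2.26 ± 0.29 (adjusted p = 0.00027, edgeR), and in CC4:2 against CC4:4 by 1.84 ± 0.29 (adjusted p = 0.00092, edgeR). In the NovaSeq samples alone these were 1.62, which did not pass (edgeR adjusted p = 0.12), 2.31 and 1.98, which did. The rise in VP4:2 against CC4:4, 1.10 ± 0.28 (adjusted p = 0.033, edgeR), held without CC4:4 replicate 1 and was lost without any other of the 6 samples, at 0.87 to 1.22 (edgeR adjusted p = 0.055 to 0.13). The difference VP4:2 less CC4:2 was -0.74 ± 0.28 (interval -1.35 to -0.12) and was not called (edgeR adjusted p = 0.16).

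Tln1 stood at 579, 677 and 532 CPM in VP4:2, 513, 769 and 542 CPM in CC4:2, 588, 477 and 457 CPM in CC4:4, and 398, 479 and 475 CPM in Control. It was called in no comparison. All VP4:2 and all CC4:2 samples were above all Control samples, yet VP4:2 less Control was 0.40 ± 0.20 log2 (edgeR adjusted p = 0.17) and CC4:2 less Control 0.43 ± 0.20 (edgeR adjusted p = 0.097). Groups without overlap were common: in CC4:2 against Control 6 of the 10 genes and 49.3% of all genes showed none, and in VP4:2 against Control 7 of the 10 and 38.6%.

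The adaptor Pxn (paxillin), a docking protein for kinases at the adhesion, was higher in CC4:2. It stood at 108, 126 and 104 CPM in VP4:2, 152, 194 and 141 CPM in CC4:2, 113, 82.7 and 108 CPM in CC4:4, and 99.0, 103 and 92.2 CPM in Control. The CC4:2 samples were above all 9 others. It rose by 0.73 ± 0.16 log2 in CC4:2 against Control (adjusted p = 0.0046, edgeR) and by 0.68 ± 0.16 in CC4:2 against CC4:4 (adjusted p = 0.0074, edgeR). In the NovaSeq samples alone neither passed, at 0.79 and 0.81 (edgeR adjusted p = 0.054 and 0.052). For VP4:2 less CC4:2 the value was -0.53 ± 0.16 (interval -0.88 to -0.18), not called by edgeR (adjusted p = 0.081) and called by DESeq2 (adjusted p = 0.024). Among the 10 genes 4 showed no overlap between VP4:2 and CC4:2 (Piezo2, Ptk2, Pxn and Ilk), beside 32.2% of all genes.

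Ptk2, focal adhesion kinase, stood at 102, 102 and 107 CPM in VP4:2, 108, 144 and 116 CPM in CC4:2, 87.1, 74.9 and 108 CPM in CC4:4, and 112, 67.6 and 55.9 CPM in Control. Control replicate 1 was inside the CC4:2 range. The rise in CC4:2 against Control, 0.65 ± 0.24 log2 (adjusted p = 0.045, edgeR), was lost without Control replicate 2 or 3 or any 1 sample of CC4:2, at 0.48 to 0.73 (edgeR adjusted p = 0.054 to 0.14). Without Control replicate 1 it was 1.00 (adjusted p = 0.0018, edgeR), and VP4:2 against Control then passed too, at 0.75 (adjusted p = 0.014, edgeR) beside 0.40 ± 0.24 with all samples. In the NovaSeq samples alone the CC4:2 difference was 0.52 (edgeR adjusted p = 0.21).

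Ilk, the integrin-linked pseudokinase that holds PINCH and parvin at adhesions, stood at 135, 115 and 124 CPM in VP4:2, 109, 113 and 107 CPM in CC4:2, 115, 104 and 123 CPM in CC4:4, and 136, 95.3 and 93.0 CPM in Control. It was called in no comparison with all samples, and CC4:2 less Control was 0.02 ± 0.15 log2 (interval -0.31 to 0.36). Without Control replicate 1, which was the highest of the 12, VP4:2 less Control was 0.41 and passed (adjusted p = 0.025, edgeR).

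Zyx encodes zyxin, which moves onto tensed actin, and was the gene of the set with its highest mean in Control. It stood at 124, 138 and 122 CPM in VP4:2, 102, 166 and 121 CPM in CC4:2, 163, 153 and 145 CPM in CC4:4, and 171, 160 and 149 CPM in Control. The VP4:2 samples were below all CC4:4 and Control samples, and CC4:2 replicate 2 lay inside the Control range. VP4:2 less Control was -0.32 ± 0.17 log2 (edgeR adjusted p = 0.20) and CC4:2 less Control -0.30 ± 0.17 (edgeR adjusted p = 0.16). Without CC4:2 replicate 2, CC4:2 less Control was -0.52 and passed (adjusted p = 0.013, edgeR), as did CC4:2 less CC4:4 at -0.46 (adjusted p = 0.023, edgeR).

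Rock2, a kinase that raises myosin contraction, had its highest mean in VP4:2. It stood at 205, 172 and 209 CPM in VP4:2, 188, 149 and 201 CPM in CC4:2, 132, 139 and 143 CPM in CC4:4, and 135, 116 and 115 CPM in Control. All VP4:2 and CC4:2 samples were above all CC4:4 and Control samples. It rose in VP4:2 against Control by 0.68 ± 0.14 log2 (adjusted p = 0.012, edgeR) and in CC4:2 against Control by 0.55 ± 0.14 (adjusted p = 0.01, edgeR). In the NovaSeq samples alone neither passed, at 0.61 and 0.44 (edgeR adjusted p = 0.18 and 0.16). The rise in VP4:2 against CC4:4, 0.50 ± 0.14 (adjusted p = 0.048, edgeR), was lost with each of the 6 samples left out in turn, at 0.45 to 0.58 (edgeR adjusted p = 0.075 to 0.14). In CC4:2 against CC4:4 the difference was 0.37 ± 0.14 (adjusted p = 0.059, edgeR) and did not pass. It passed there without CC4:2 replicate 2, at 0.49 (edgeR adjusted p = 0.019), and in DESeq2, at 0.38 (adjusted p = 0.023). The difference VP4:2 less CC4:2 was 0.12 ± 0.14 (interval -0.19 to 0.44).

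Without overlap were 6 of the 10 genes in CC4:2 against CC4:4, beside 53.1% of all genes, and 4 in VP4:2 against CC4:4, beside 43.5%. In CC4:4 against Control 0 of the 10 were without overlap, beside 7.42% of all genes. The log2 differences there were 0.44 ± 0.20 for Piezo2 (interval 0.00 to 0.89), 0.47 ± 0.18 for Vcl (0.07 to 0.88) and 0.43 ± 0.28 for Tln2 (-0.20 to 1.05), each with an edgeR adjusted p of 0.93 or more. The other 7 genes lay between -0.06 and 0.20.

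Ratios of close relatives within a sample do not depend on library scaling. Tln2 over Tln1 was -3.03 ± 0.18 on the log2 scale in VP4:2, -2.33 ± 0.19 in CC4:2, -3.92 ± 0.42 in CC4:4 and -4.13 ± 0.28 in Control (SD, n = 3 each). The ratio in every CC4:2 sample was above that in all 9 others, and in every VP4:2 sample above those in CC4:4 and Control. Piezo2 over Piezo1 was -1.88 ± 0.17 in VP4:2, -0.88 ± 0.53 in CC4:2, -2.17 ± 0.28 in CC4:4 and -2.54 ± 0.42 in Control. Here too the CC4:2 samples lay above all others, while VP4:2 and CC4:4 overlapped. Rock2 over Rock1, its paralog, was 0.87 ± 0.04 in VP4:2, 0.78 ± 0.12 in CC4:2, 0.55 ± 0.17 in CC4:4 and 0.55 ± 0.08 in Control, a narrow range. In an exact permutation test over all 369600 arrangements of the samples, p was 0.00045 for the talins, 0.002 for the channels and 0.025 for the kinases, or 0.0014, 0.003 and 0.025 adjusted over the 3 ratios. The kinase ratio no longer passed without Control replicate 2, VP4:2 replicate 2 or 3, or CC4:4 replicate 2, at an exact permutation p of 0.05 to 0.064. Rock1 itself stood at 116, 93.7 and 111 CPM in VP4:2, 121, 84.3 and 110 CPM in CC4:2, 98.6, 98.1 and 85.7 CPM in CC4:4, and 86.1, 80.3 and 82.4 CPM in Control. Between 2 single groups of 3 the smallest p the exact test allows is 0.1.

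**Figure D3:**
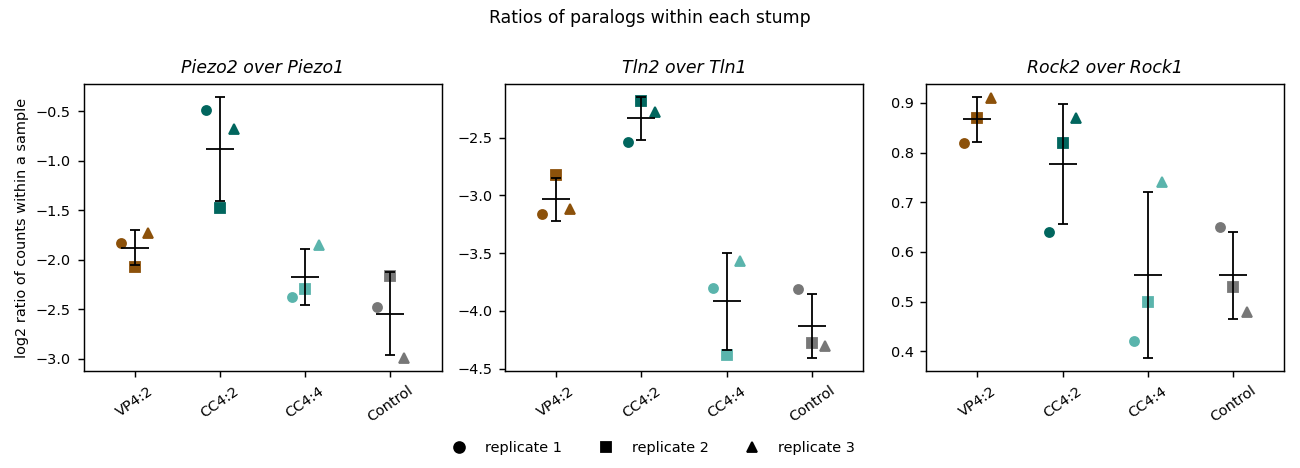
Log2 ratio of counts (y axis) of Piezo2 over Piezo1, Tln2 over Tln1 and Rock2 over Rock1 in each stump, by group (x axis), with mean and SD of 3 samples. The talin ratio averages -3.03 in VP4:2, -2.33 in CC4:2, -3.92 in CC4:4 and -4.13 in Control.

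That Piezo2 was called lower in VP4:2 than in CC4:2 and Vcl was not does not by itself show that the genes differed. As a description chosen after the values were seen, with no test, Piezo2 over Vcl was -3.21, -2.89 and -2.65 log2 in VP4:2, -1.87, -1.93 and -1.53 in CC4:2, -2.50, -2.39 and -2.36 in CC4:4, and -2.56, -2.02 and -2.67 in Control. The VP4:2 samples lay below all CC4:2 and CC4:4 samples and overlapped Control.

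Other adaptors and kinases of focal adhesions moved in both directions. Of 53 listed genes beside the members, 52 were tested. The shares of all genes called in each comparison, given above, apply to the counts of this list and the lists below. In CC4:2 against Control 20 were called higher and 11 lower, beside 43.5% of all genes called and 20.3% called higher. The list median was 0.20 log2 beside -0.04 over all genes. Tns1, a tensin that ties integrins to actin, rose by 1.97 ± 0.25, and Kank1, which binds talin, by 1.15 ± 0.16. Parvg, the parvin of blood cells, fell by 2.79 ± 0.17 (23.5 ± 4.90 CPM in VP4:2, 8.08 ± 0.77 in CC4:2, 49.6 ± 6.07 in CC4:4, 56.1 ± 3.94 in Control). Fermt3, the kindlin of blood cells, fell by 2.07 ± 0.17, and Vasp, which helps actin filaments grow, by 1.61 ± 0.16. Fermt2 and Parva, the kindlin and parvin of most other tissues, were chosen after their values were seen and rose by 1.29 ± 0.25 and 1.24 ± 0.25. The third parvin, Parvb, fell by 0.98 ± 0.17. All of these named genes passed in edgeR at adjusted p of 0.0026 or less.

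Between the drug-loaded and unloaded 4:2 conduits the same list had 7 genes called higher and 0 lower in VP4:2, with a median of -0.03. Of all genes 6.23% were called there, and 84% of those calls were higher. Fermt3 rose by 1.66 ± 0.17 (83.8 ± 9.15 CPM in VP4:2, 26.6 ± 3.66 in CC4:2), Parvg by 1.54 ± 0.17 and Parvb by 0.99 ± 0.17. Against Control, VP4:2 had 9 genes called higher, among them Tns1 (1.17 ± 0.24) and the tensin Tns3 (0.95 ± 0.16), and 4 lower, among them Parvg (-1.25 ± 0.16) and Evl (-1.17 ± 0.19), a relative of Vasp. The list in CC4:2 against CC4:4 had 17 higher and 12 lower, in VP4:2 against CC4:4 5 and 4, and in CC4:4 against Control 0 and 0.

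Of 29 genes of the ROCK and actomyosin list beside Rock2, 28 were tested. In CC4:2 against Control 6 were called higher and 4 lower, with a median of 0.01. With 20.3% of all genes called higher and 43.5% called in either direction there, these counts are not particular to the list. Mrtfb, an actin-sensing coactivator of SRF, rose by 1.48 ± 0.20 (30.2 ± 3.35 CPM in VP4:2, 51.8 ± 11.2 in CC4:2, 24.3 ± 6.23 in CC4:4, 18.6 ± 0.287 in Control). The actin-binding Pfn1 fell by 1.36 ± 0.19 and Cfl1 by 0.74 ± 0.19. In VP4:2 against CC4:2 Pfn1 was the 1 gene called higher (0.77 ± 0.19, adjusted p = 0.037, edgeR) and Mrtfb the 1 called lower (-0.78 ± 0.20, adjusted p = 0.045, edgeR). The list had 3 higher and 2 lower in VP4:2 against Control, 7 and 4 in CC4:2 against CC4:4, 1 and 0 in VP4:2 against CC4:4, and 0 and 0 in CC4:4 against Control. Rock1 was called in no comparison, at 0.37 ± 0.14 in VP4:2 against Control and 0.34 ± 0.14 in CC4:2 against Control.

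Of 23 other mechanically gated channels and partners of PIEZO channels, 19 were tested. Against Control, CC4:2 had 6 called higher, among them the polycystins Pkd2 (1.28 ± 0.19) and Pkd1 (0.99 ± 0.21) and the cation channel Trpc1 (1.51 ± 0.24), and 3 lower, Trpv2 (-1.79 ± 0.18), Tmem63a (-0.88 ± 0.13) and Mdfi (-1.47 ± 0.54). Trpv2, a cation channel abundant in macrophages and also found in sensory neurons, was the 1 gene of this list called in VP4:2 against CC4:2. It rose there by 2.56 ± 0.18 (adjusted p = 9.6e-05, edgeR). Its level was 86.6 ± 4.31 CPM in VP4:2, 14.7 ± 0.646 in CC4:2, 49.9 ± 11.8 in CC4:4 and 50.9 ± 8.06 in Control. It was lowest in CC4:2, the group in which Piezo2 was highest, and highest in VP4:2. The list had 4 higher and 1 lower in VP4:2 against Control, 5 and 2 in CC4:2 against CC4:4, 4 and 1 in VP4:2 against CC4:4, and 0 and 0 in CC4:4 against Control.

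**Figure D4:**
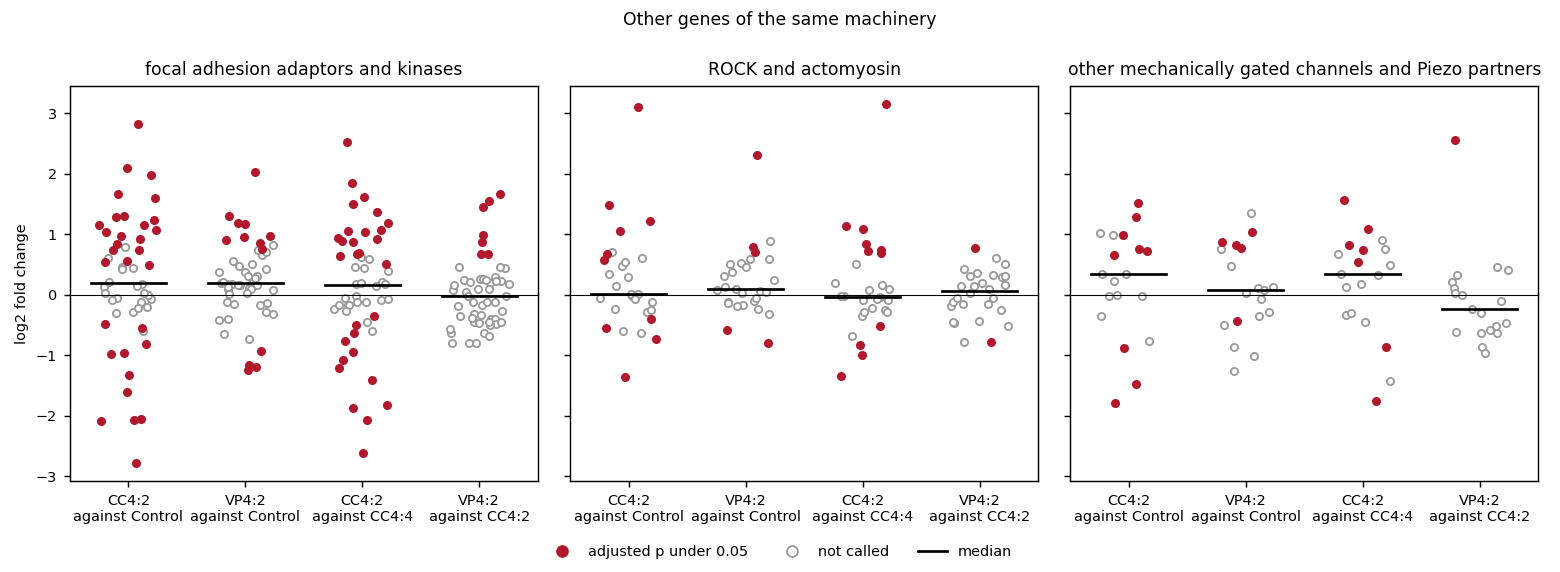
Log2 fold change (y axis) of the tested genes of 3 lists, the 10 genes aside, in 4 comparisons (x axis); filled points passed an adjusted p of 0.05 in edgeR, and the bar is the median. In CC4:2 against Control called genes lie on both sides of 0 in all 3 lists.

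The cell makeup of the stumps, as far as marker genes show it, also differed between the groups. Summed Schwann cell markers were 12800 to 18600 CPM in VP4:2, 13900 to 35800 CPM in CC4:2, 2740 to 3470 CPM in CC4:4 and 488 to 4720 CPM in Control. Of the 12, 8 were called higher in VP4:2 against Control, 11 in CC4:2 against Control and 0 in either direction in VP4:2 against CC4:2. Vcl, Tln2 and Rock2 also stood high in VP4:2 and CC4:2. Within groups they went with this sum in some samples and not in others. Control replicate 1, which stood apart from the other controls, had the lowest sum of Control (488 CPM) and the highest Vcl, Tln2 and Rock2. CC4:2 replicate 1 had the highest sum (35800 CPM) and the lowest Tln2 of its group (88.3 CPM). In VP4:2, replicate 2 had both the highest sum (18600 CPM) and the highest Tln2 (95.7 CPM). VP4:2 replicate 3 had the lowest sum of its group (12800 CPM). It had the lowest Vcl (193 CPM) and Tln2 (61.3 CPM) and the highest Rock2 (209 CPM). CC4:4 replicate 1 had the highest sum of its group (3470 CPM). It had the highest Vcl (171 CPM) and Tln2 (42.1 CPM) and the lowest Rock2 (132 CPM). Summed perineurial markers were 1720 to 2310 CPM in VP4:2, 4090 to 4720 CPM in CC4:2, 440 to 683 CPM in CC4:4 and 328 to 875 CPM in Control. The CC4:2 samples were above all others, and the VP4:2 samples above all CC4:4 and Control samples, whereas for Piezo2 VP4:2 and CC4:4 overlapped. The largest part of this sum was a single marker, Itgb4. Its mean and SD were 1340 ± 288 CPM in VP4:2, 3230 ± 258 in CC4:2, 288 ± 104 in CC4:4 and 258 ± 231 in Control. The sum is therefore not an even reading of the list. Of the 6 tested of 8, 3 were called higher in VP4:2 against Control, 4 in CC4:2 against Control, 2 in VP4:2 against CC4:4 and 0 in VP4:2 against CC4:2, and Lypd2 was at 0 in all groups. Summed macrophage markers were 2190 to 2560 CPM in VP4:2, 953 to 1380 CPM in CC4:2, 1700 to 2650 CPM in CC4:4 and 2530 to 2990 CPM in Control. Of the 10, 6 were called higher in VP4:2 against CC4:2 and 7 lower in CC4:2 against Control, the directions in which Parvg, Fermt3 and Trpv2 moved. In VP4:2 against Control 0 of these markers were called higher and 1 lower. There Trpv2 was called higher (0.77 ± 0.17) and Parvg lower (-1.25 ± 0.16). Fermt3 stood at 83.8 ± 9.15 CPM in VP4:2 and 112 ± 24.4 CPM in Control. Markers of other blood cells were also called lower in that comparison. These were 6 of 7 tested for neutrophils, 6 of 8 for T and NK cells and 7 of 8 for B and plasma cells. The part of cell makeup in the differences of the 10 genes was not tested.

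Other markers were read in the same way. Summed endothelial markers were 974 to 1170 CPM in VP4:2 and 1100 to 1820 CPM in CC4:2. In CC4:4 they were 1040 to 1550 CPM, and in Control 680 to 1400 CPM. Summed pericyte and smooth muscle markers were 1690 to 3150 CPM in VP4:2 and 1550 to 2770 CPM in CC4:2. In CC4:4 they were 2070 to 2640 CPM, and in Control 1260 to 2590 CPM. Both sums were the highest of their group in Control replicate 1 and CC4:2 replicate 2. These samples had their group's highest value for 7 and 8 of the 10 genes. In CC4:4 both sums were highest in replicate 3, which was highest for 4 genes. In VP4:2 the endothelial sum was highest in replicate 2 (6 genes) and the pericyte sum in replicate 1 (2 genes). The part of these cells was not tested. Summed skeletal muscle markers varied widely within groups. They were 192 to 6180 CPM in VP4:2 and 172 to 10400 CPM in CC4:2. In CC4:4 they were 203 to 2590 CPM, and in Control 4.72 to 6710 CPM. The highest sample of VP4:2 and of CC4:2, replicate 2, also had the highest Tln2 of its group. The highest sample of CC4:4 (replicate 2) and of Control (replicate 3) had the lowest Tln2. The part of muscle in these differences was not tested. Summed neutrophil markers were 22.5 to 25.6 CPM in VP4:2, 19.4 to 25.6 CPM in CC4:2, 344 to 876 CPM in CC4:4 and 413 to 581 CPM in Control. Of 8 adipocyte markers, 7 were called higher in VP4:2 against Control and 8 in CC4:2 against Control. T and NK cell markers had 6 of 8 tested called lower in VP4:2 against Control and 8 in CC4:2 against Control, and B and plasma cell markers 7 of 8 and 8 of 8. Summed fibroblast markers were 21800 to 26200 CPM in VP4:2, 30100 to 65400 CPM in CC4:2, 40600 to 60100 CPM in CC4:4 and 14200 to 56800 CPM in Control. Of the 10, 3 were called higher in VP4:2 against Control, 6 in CC4:2 against Control, 4 in CC4:2 against CC4:4 and 0 in VP4:2 against CC4:2. Summed sensory neuron markers, the cells best known for Piezo2, were low in all groups, at 54.7 to 70.6 CPM in VP4:2, 31.5 to 156 CPM in CC4:2, 78.4 to 124 CPM in CC4:4 and 49.3 to 134 CPM in Control. Of the 9 tested of 12, 1 was called higher and 2 lower in VP4:2 against CC4:2, and 2 higher and 2 lower in CC4:2 against Control. Of the listed markers, Scn10a was at 0 in VP4:2, CC4:4 and Control. Tac1 was at 0 in CC4:2, CC4:4 and Control.

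**Figure D5:**
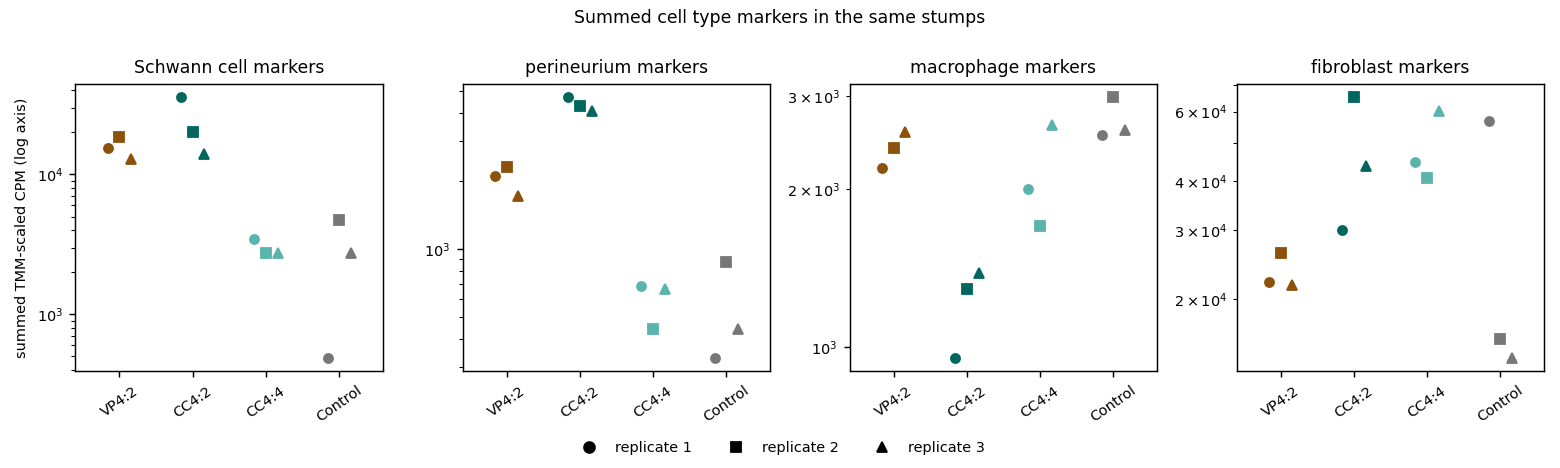
Summed TMM-scaled CPM (y axis, log scale) of marker genes of Schwann cells, perineurium, macrophages and fibroblasts in each stump, by group (x axis), with markers for the replicate. Schwann cell markers are high in VP4:2 and CC4:2, perineurial markers highest in CC4:2 (4090 to 4720 CPM) and macrophage markers lowest there (953 to 1380 CPM).

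The patterns most like those of 4 members were looked up over all tested genes by Pearson's r of log2 CPM over the 12 samples. This is a description in which differences between groups and the spread within groups both enter. Nearest to Piezo2 were Spon2 (r = 0.979), Snx33 (0.963) and Pcdhb7 (0.958). Nearest to Vcl were Cd151 (0.977), Foxc1 (0.976) and Sort1 (0.974), and among the nearest to Piezo1 were Rbck1 (0.945) and Shank3 (0.937). Nearest to Tln1 were Klhl21 (0.937), Cic (0.929) and Cluh (0.927). After the group means were taken out, r was 0.95 for Piezo1 with Rbck1 and 0.96 with Shank3. For Tln1 it was then 0.90, 0.95 and 0.93 in the order named, so the spread within groups carried these likenesses too. For Piezo2 it was 0.89, 0.73 and 0.58, and for Vcl 0.89, 0.82 and 0.80. Among the members, after the group means were taken out, r was 0.93 for Piezo1 with Zyx and 0.88 for Piezo1 with Tln1 over the 12 samples. CC4:2 replicate 2 was the highest sample of its group for all 3 of these genes. For Tln1 with Rock2 it was -0.92, and that sample was the lowest of its group for Rock2.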

How the data were processed

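Stranded poly(A) libraries were sequenced as paired reads of 150 bases, per the labels' protocols. The authors deposited 1 table of expected counts per gene with no normalization recorded (12 identical copies, 11 not used). Per the submitters' processing notes they used HISAT2, StringTie, RSEM and DESeq2; roles, versions, genome build and annotation are not given in the sources used here. Expected counts were rounded to whole numbers. Symbols came from the table, where 4367 genes had none. A single model held all 12 samples, with group as its term (edgeR 4.0.16, limma 3.58.1, R 4.3.3; TMM scaling, filterByExpr, quasi-likelihood test, 8 residual degrees of freedom), and p was adjusted by Benjamini-Hochberg over all 15712 genes tested and called under 0.05. SE was taken as the absolute log2 fold change over √F. Ratios used counts plus 0.5. Alternatives included DESeq2 1.42.0. The edgeR test was also run on simulated counts in which 100 of 15712 genes changed 2-fold and 100 changed 4-fold. It recovered 21 to 30 of the 2-fold and 66 to 81 of the 4-fold changes, with 3 to 7 false calls. Most 2-fold changes were thus missed in that setting. In the data many more genes were called, 43.5% in CC4:2 against Control, so these recoveries need not carry over. A gene not called may still differ. Replicate numbers were checked as pairs by correlating deviations from group means. In VP4:2 against CC4:2 the correlations were 0.13, 0.30 and 0.46, all above 0.1. The labels state no pairing, and same-numbered samples also share a sequencing platform. These correlations therefore do not show that the samples are matched.

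The members and gene lists were chosen with earlier results of these data known. Named beside the members were, per list and comparison, genes among the 3 of smallest p in each direction that were called, and for Piezo1, Piezo2, Vcl and Tln1 the 3 genes of highest r with a mean of at least 1 CPM. Of the genes this rule gave, the text prints a part chosen after values were seen, and some are not reported here. Promoter windows are from RefSeq (GRCr8).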

Additional observations from a re-analysis of the deposited data

How the results depend on the processing

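Across other scalings, no filter, other tools, only the groups compared, platform, replicate block and left-out samples, the calls of Piezo2, Vcl and Tln2 in CC4:2 against Control and against CC4:4, and of Piezo2 in VP4:2 against CC4:2, held in all 15 settings each. The number of the 10 genes called in VP4:2 against CC4:4 (2 as reported) was 1 with upper-quartile scaling, without the filter and with platform as a term, 0 in NovaSeq samples alone and 0 with the replicate block, and 0 to 1 with samples left out. With DESeq2, VP4:2 against CC4:2 gave 2. In NovaSeq samples alone, with 2 samples per group, CC4:2 against Control gave 3, VP4:2 against Control 0 and any difference 3. With samples left out, VP4:2 against Control gave 3 to 5, CC4:2 against Control 5 to 6 and CC4:2 against CC4:4 4 to 6. The difference of Rock2 over Rock1 between CC4:2 and Control (0.22) was 0.18 to 0.29 then, with exact permutation p for the 4 groups of 0.01 to 0.064.

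Signs turned only for values not called. Zyx in VP4:2 against CC4:2 was 0.01 with limma-voom. In NovaSeq samples alone Ilk in CC4:2 against Control was -0.04, and in CC4:4 against Control Ptk2 was -0.11, Pxn -0.01 and Ilk -0.04. With samples left out, ranges crossed 0 for Ilk in CC4:2 against Control (-0.05 to 0.22), Tln1 (-0.14 to 0.18) and Zyx (-0.16 to 0.20) in VP4:2 against CC4:2, Piezo1 in CC4:2 against CC4:4 (-0.11 to 0.43), Piezo2 in VP4:2 against CC4:4 (-0.03 to 0.18), and Piezo1 (-0.03 to 0.22), Pxn (-0.03 to 0.19) and Zyx (-0.09 to 0.01) in CC4:4 against Control. The call of Ptk2 in CC4:2 against Control was lost without the filter (edgeR adjusted p = 0.054), with platform (0.057), with only the groups compared (0.11) and in NovaSeq samples alone (0.21). Rock2 there had 0.055 with only the groups compared.

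With replicate number as a block, Piezo2 in VP4:2 against CC4:2 stayed called at -1.35 (edgeR adjusted p = 0.01). In the other comparisons the correlations of same-numbered samples were -0.44 to 0.23. Over all groups, 5 of 12 samples correlated best with their own number. With the replicate block, Ptk2 in CC4:2 against Control had an adjusted p of 0.064, and in VP4:2 against CC4:4 Tln2 had 0.063 and Rock2 0.055.

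Over all genes, counts moved most with DESeq2 (1836 in VP4:2 against CC4:2, 3058 in VP4:2 against CC4:4, 11 in CC4:4 against Control), in NovaSeq samples alone (3222 in CC4:2 against Control, 202 in VP4:2 against CC4:2, 19 in VP4:2 against Control, 3252 in CC4:2 against CC4:4, 29 in VP4:2 against CC4:4, 2088 for any difference), with only the groups compared (4363 in CC4:2 against Control, 1869 in VP4:2 against Control, 3322 in VP4:2 against CC4:4) and with samples left out (0 to 296 in CC4:4 against Control, 466 to 746 in VP4:2 against CC4:2, 232 to 1175 in VP4:2 against CC4:4, 1168 to 4294 in VP4:2 against Control). In VP4:2 against CC4:2, 84% of calls were higher, 70.9% with only the groups compared, 71.9% with DESeq2 and 96% in NovaSeq samples alone. The causes were not tested. Between replicates of a group, chi-square of the counts per degree of freedom was 47.3 to 318, so the spread between samples exceeded counting error.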
